A study of Mus musculus with 22 samples.

Results

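The 9 genes followed here across all cell samples were the neurexins Nrxn2 and Nrxn3, the neuroligins Nlgn1, Nlgn2 and Nlgn3, the calsyntenins Clstn1, Clstn2 and Clstn3, and the neurexophilin Nxph1. They were chosen by symbol, and all 9 are among the 13812 genes of the deposited table. RNA of cells purified from the mouse retina was amplified and sequenced. Rods and cones, the photoreceptors, and bipolars, the interneurons that receive photoreceptor signals, were each taken at ages P7, P13 and P30, in days after birth. Rod bipolars and cone bipolars, named for the photoreceptor that drives them, came from P13 only. Libraries were made in pairs, 2 for every one of 11 groups. Labels record the age, the retina and the cell type of a library, with no strain, reporter or gate. They say bipolars where the series design says ON-bipolars, the class excited by light.

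Neurexins are presynaptic adhesion proteins that reach across the synaptic cleft and organise both sides of it. Neuroligins are their classical postsynaptic receptors: neuroligin 1 is best known at excitatory synapses, neuroligin 2 at inhibitory ones, and neuroligin 3 at both. Calsyntenins are cadherin-like membrane proteins, of which calsyntenin 3 binds neurexins and calsyntenin 1 also links cargo vesicles to kinesin. Neurexophilin 1 is a secreted glycoprotein that binds the extracellular part of alpha-neurexins. In the retina, photoreceptor ribbon terminals contact bipolar dendrites in the outer plexiform layer, and bipolar terminals contact amacrine and ganglion cells in the inner one.

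Among them, Nrxn2, Nrxn3, Nlgn1, Nlgn3, Clstn2, Clstn3 and Nxph1 were higher in bipolars than in rods at each age. Clstn1 had its highest levels in rods at P7 and in cones. Nlgn2 held at least 16.8 CPM in every library. Within rods, Nrxn3, Clstn1 and Clstn3 fell from P7 to P30, and each of these changes differed from that in cones and from that in bipolars by the test of the difference itself. Clstn1 was lower at P30 in cones too, under the fold for a call, and its difference between rods and cones was lost with plain read totals. Nxph1 was high in the bipolar libraries and close to absent from both the rod bipolar and the cone bipolar libraries.

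Levels are given in CPM, read counts scaled to library size, with both libraries of a group in order. Depth ran from 14.4 to 54.4 Mreads, and between 174 and 2463 genes of the table had no reads in a library. Where a group had no reads for a gene, the limit was set at 3 reads over its 2 libraries. That limit, and each fold given as at least a value, covers counting error and not amplification. Paired libraries correlated between 0.849 (cones, P30) and 0.971 (bipolars, P7). Nothing in the labels ties the libraries to separate animals, and the p-values rest on differences between libraries that could be technical. A difference was called when its Benjamini-Hochberg adjusted p (limma, over 13405 genes) was under 0.05 and its log2 fold change reached 1 in size. Fold changes are differences of the deposited log2 CPM, ± SE. Fitted fold changes of genes without reads in a library depend on the small value that stands for 0 reads. In bulk samples, fewer cells of a type and less RNA per cell cannot be told apart.

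The labels were set beside marker genes. The 5 rod markers summed to between 13215 and 20673 CPM in rods and to between 3190 and 9136 CPM in cones. Nearly all of the sum in cones was Sag, the rod arrestin, with means of 2976, 5786 and 7519 CPM at P7, P13 and P30. Means of the other 4 (Nrl, Nr2e3, Pde6b and Cngb1) lay between 24.5 and 125 CPM in cones and between 689 and 5045 CPM in rods. The 5 cone markers summed to between 11921 and 39421 CPM in cones and to at most 321 CPM in rods. Grm6, the glutamate receptor of ON-bipolars, had no reads in rods, means of 16.7, 21.6 and 7.20 CPM in cones at P7, P13 and P30, and means of at least 1089 CPM in all bipolar samples. Vsx1, a factor of cone bipolars, averaged 264 CPM in bipolars at P13, 369 CPM in cone bipolars and 15.6 CPM in rod bipolars. Trpm1 and Isl1 had means of at most 10.7 and 21.7 CPM in photoreceptors and at least 161 and 577 CPM in bipolar samples. Otx2 did not separate the cells, and Cabp5 set rods apart from bipolars but was also found in cones. At P7, Otx2 averaged 2116 CPM in rods and 2228 CPM in bipolars. Cabp5 averaged 0, 0.0351 and 1.13 CPM in rods, 211, 283 and 291 CPM in cones and 67.4, 451 and 605 CPM in bipolars at P7, P13 and P30. All 6 bipolar markers summed to 2070 to 2167 CPM in rods and 5049 to 5229 CPM in bipolars at P7. All 5 Müller glia markers were detected in bipolars, and they summed to 159 to 164 CPM at P7, 661 to 824 CPM at P13 and 3861 to 6001 CPM at P30. The 6 amacrine markers summed to 72.4 to 406 CPM in bipolars, 22.7 to 146 CPM in rod bipolars, 33.9 to 95.5 CPM in cone bipolars and at most 70.7 CPM in photoreceptors.

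Nrxn3, Clstn1 and Clstn3 changed with age in rods, so all 6 windows before their listed RefSeq starts are shown. RefSeq starts (GRCm38.p6) gave 11 windows of 250 bases for 7 of the 9 genes, among 32851 windows of all genes. The 3 sets of letters tied to photoreceptor factors were searched on both strands, and no matches overlapped: TAATCC, the core bound by CRX and OTX2, AGGTCA, a nuclear receptor core site, and TGCTGA, part of the site of NRL. They occur in 6.3%, 14.0% and 16.1% of all windows and in 1, 0 and 3 of the 11. They are printed 5′ to 3′ on the strand of the gene, with matches in capitals. Of the 3 Nrxn3 windows, all on the + strand, chr12:88794254-88794503 begins with TGCTGA, chr12:88953140-88953389 holds TGCTGA with its first base at position -132 from the start, and chr12:89812233-89812482 holds none of the 3. The Clstn1 window, chr4:149586218-149586467 on the + strand, has 80.0% GC and 38 CpG against medians of 52.4% and 6 over all windows, and holds none. Of the 2 Clstn3 windows on the - strand, chr6:124464785-124465034 holds none and chr6:124462745-124462994 holds TAATCC at position -113 from the start. The gene annotation begins Nrxn3 at 88722876, so all 3 of its windows lie within the gene, and no window at that end was listed. Names by position below give the order among the windows shown. A match is a description of letters, not a bound site.
Nrxn3, most upstream start: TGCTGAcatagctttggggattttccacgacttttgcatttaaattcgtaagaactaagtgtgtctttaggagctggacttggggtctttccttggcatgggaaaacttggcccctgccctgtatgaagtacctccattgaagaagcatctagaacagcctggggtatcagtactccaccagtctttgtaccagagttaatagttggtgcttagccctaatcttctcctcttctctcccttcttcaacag
Nrxn3, middle start: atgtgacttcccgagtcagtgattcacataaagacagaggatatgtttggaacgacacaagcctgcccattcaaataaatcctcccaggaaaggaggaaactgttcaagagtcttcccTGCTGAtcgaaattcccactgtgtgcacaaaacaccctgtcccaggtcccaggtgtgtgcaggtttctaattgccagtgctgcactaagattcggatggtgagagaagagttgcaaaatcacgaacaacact
Nrxn3, most downstream start: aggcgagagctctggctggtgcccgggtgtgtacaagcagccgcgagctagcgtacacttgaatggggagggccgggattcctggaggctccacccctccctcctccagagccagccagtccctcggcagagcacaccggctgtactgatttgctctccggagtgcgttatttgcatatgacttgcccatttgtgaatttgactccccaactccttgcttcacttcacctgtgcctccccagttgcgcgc
Clstn1: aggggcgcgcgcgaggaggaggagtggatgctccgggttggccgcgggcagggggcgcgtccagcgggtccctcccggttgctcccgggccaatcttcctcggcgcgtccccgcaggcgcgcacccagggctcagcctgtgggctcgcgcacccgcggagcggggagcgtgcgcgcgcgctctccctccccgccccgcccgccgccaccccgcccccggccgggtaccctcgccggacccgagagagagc
Clstn3, upstream start: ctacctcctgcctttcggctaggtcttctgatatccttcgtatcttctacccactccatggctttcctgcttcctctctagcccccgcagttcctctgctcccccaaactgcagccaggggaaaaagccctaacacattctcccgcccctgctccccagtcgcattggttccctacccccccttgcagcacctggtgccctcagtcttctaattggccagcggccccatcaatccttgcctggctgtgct
Clstn3, downstream start: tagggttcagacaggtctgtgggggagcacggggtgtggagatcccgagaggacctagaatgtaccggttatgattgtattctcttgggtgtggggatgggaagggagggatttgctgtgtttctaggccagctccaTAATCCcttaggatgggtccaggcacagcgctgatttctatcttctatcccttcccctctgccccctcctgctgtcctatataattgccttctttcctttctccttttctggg

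Nrxn3 (ENSMUSG00000066392, chromosome 12, 88722876 to 90334935 on GRCm38) is a protein-coding gene that spans 1612.1 kb. In rods it stood at 177 and 113 CPM at P7, 56.6 and 30.4 CPM at P13, and 14.0 and 3.14 CPM at P30. Cones held 174 and 74.5 CPM at P7, 351 and 225 CPM at P13, and 300 and 246 CPM at P30. Bipolars held 1171 and 1148 CPM at P7, 1475 and 1433 CPM at P13, and 1448 and 1414 CPM at P30. Every bipolar library was thus above every cone library, while rods and cones overlapped at P7 and separated from P13 on. Rod bipolars held 1073 and 1597 CPM and cone bipolars 2148 and 1903 CPM. No other group reached the cone bipolars, the highest of the 11, although the difference from rod bipolars was not called (-0.63 ± 0.53, adjusted p = 0.646, limma).

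Against rods, bipolars had more Nrxn3 by a log2 fold change of 3.03 ± 0.53 at P7, 5.13 ± 0.53 at P13 and 7.75 ± 0.53 at P30 (limma adjusted p = 0.000402, 1.7e-06 and 2.27e-08). Against cones the difference was 3.35, 2.37 and 2.40 at the same ages (limma adjusted p = 0.00028, 0.00379 and 0.00259). Rods and cones differed by 0.32 ± 0.53 at P7 (limma adjusted p = 0.774), by -2.76 ± 0.53 at P13 (adjusted p = 0.00142) and by -5.35 ± 0.53 at P30 (adjusted p = 3.22e-06). Cone libraries held the rod markers other than Sag at means of at most 125 CPM, and the part of rod RNA in these rod and cone differences was not tested.

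Nrxn2 (ENSMUSG00000033768, chromosome 19, 6418731 to 6544169, spanning 125.4 kb) was a bipolar gene at a far lower level. Its 6 rod libraries ran from 0.0602 to 1.83 CPM with a median of 0.746 CPM, and its 6 cone libraries from 0.0232 to 3.80 CPM with a median of 0.850 CPM. The 2 cone libraries at P13 held 0.0232 and 3.36 CPM, the first of these from 1 read, so replicates of photoreceptors disagreed widely. Bipolars held 22.1 and 20.7 CPM at P7, 39.5 and 53.5 CPM at P13, and 28.8 and 21.4 CPM at P30. Rod bipolars, at 19.4 and 22.2 CPM, lay below cone bipolars, at 43.8 and 51.3 CPM, without overlap, but the difference was not called (-1.19 ± 1.63, adjusted p = 0.826, limma). Per kb of exon, Nrxn3 made up at least 86.1% of the summed level of Nrxn2 and Nrxn3 in each rod library, and at least 96.7% in each cone and bipolar library.

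Nrxn2 was higher in bipolars than in rods by 6.71 ± 1.63, 5.33 ± 1.63 and 4.60 ± 1.63 on the log2 scale at P7, P13 and P30 (limma adjusted p = 0.00492, 0.0144 and 0.032). Against cones the fold change was 3.91 ± 1.63 at P7, which was not called (limma adjusted p = 0.111), and 7.16 and 5.09 at P13 and P30 (adjusted p = 0.00429 and 0.0236). These calls leaned on single libraries. Against rods, the P7 call was lost without rod replicate 1 (5.10), the P13 call without rod replicate 1 or either bipolar library (4.97 to 5.55), and the P30 call without any 1 of the 4 libraries compared (3.75 to 5.46). Against cones, the P13 call was lost without cone replicate 1 (3.77) and the P30 call without cone replicate 1 or either bipolar library (4.39 to 5.30).

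**Figure D1:**
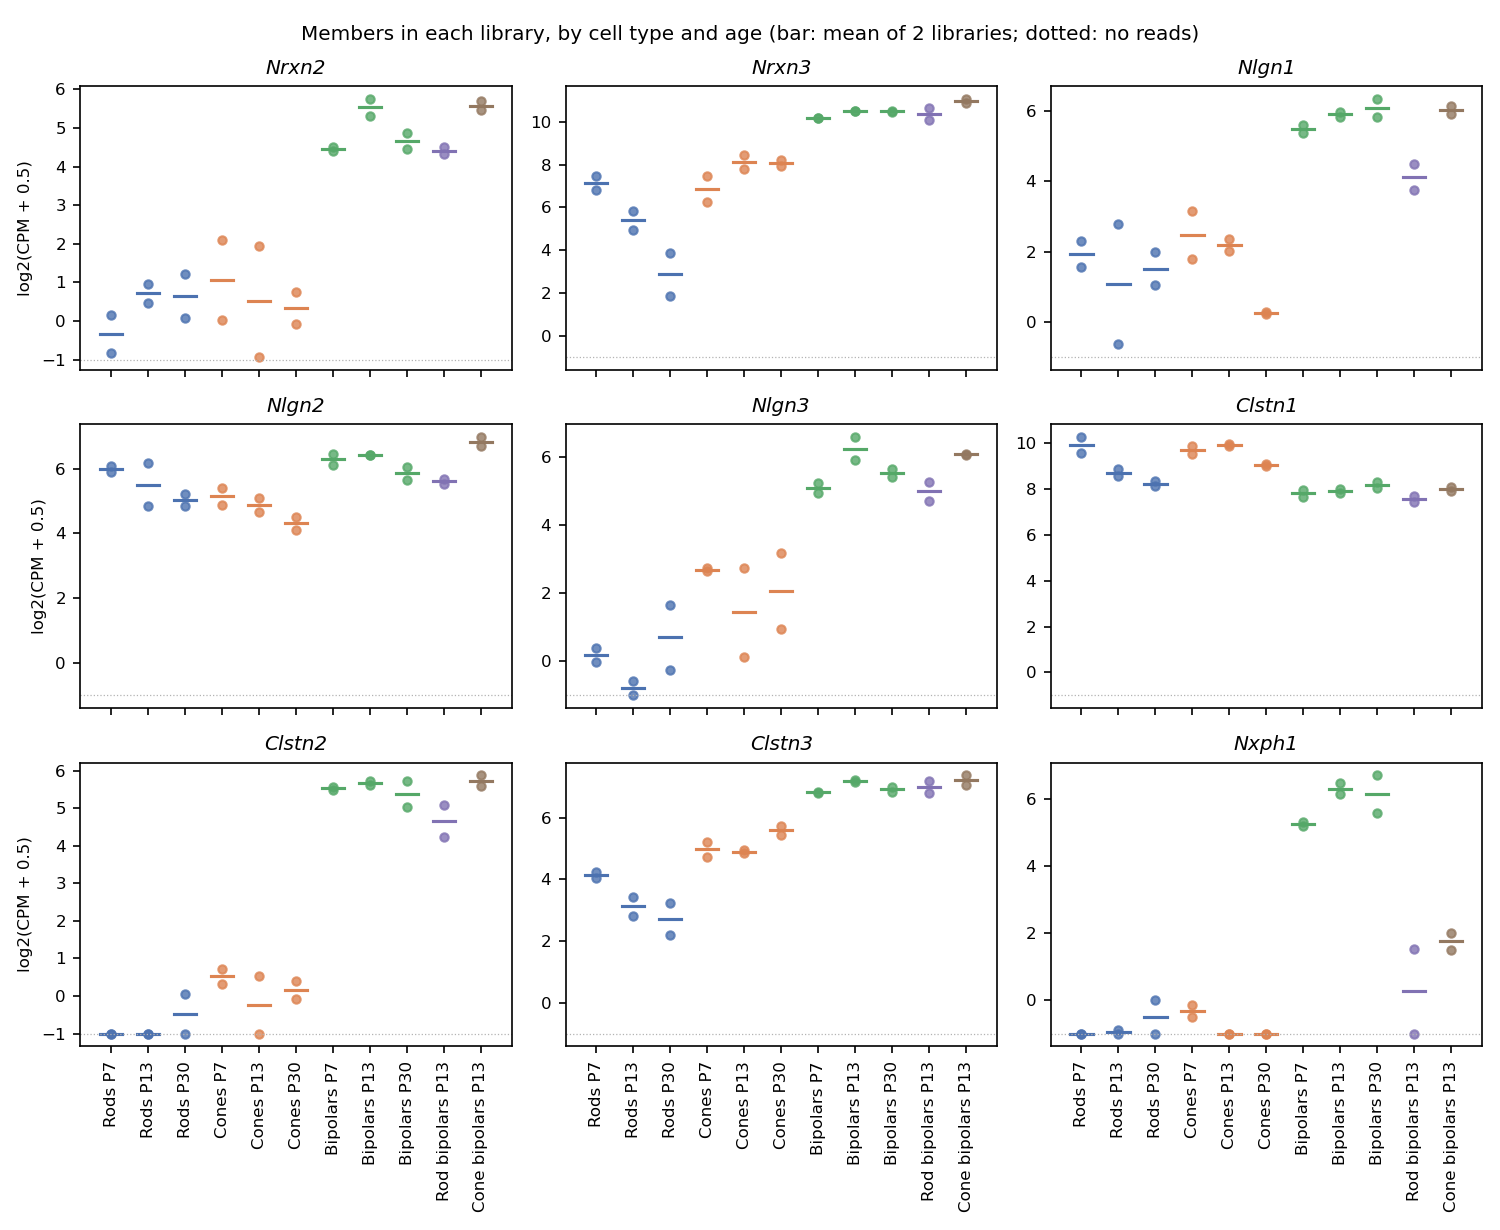
Level of each gene in every library as log2(CPM + 0.5), by cell type and age; points are the 2 libraries of a group, bars the mean of their log2 values, and the dotted line marks 0 reads. Nrxn2, Nrxn3, Nlgn1, Nlgn3, Clstn2 and Clstn3 sit high in all bipolar groups, Clstn1 sits highest in rods at P7 and in cones, and Nxph1 is high in bipolars but not in the rod bipolar and cone bipolar samples.

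Among the neuroligins, Nlgn2 (ENSMUSG00000051790, chromosome 11, 69823122 to 69837784, a compact gene of 14.7 kb) was the one with at least 16.8 CPM in every library. Rods held 67.1 and 59.7 CPM at P7, 71.3 and 28.5 CPM at P13, and 36.7 and 28.1 CPM at P30. Cones held 42.2 and 29.0 CPM, 33.9 and 25.1 CPM, and 22.4 and 16.8 CPM at the same ages. Bipolars held 69.3 and 87.1 CPM, 84.8 and 85.1 CPM, and 66.5 and 49.9 CPM. Bipolar libraries lay above the cone and the rod libraries of the same age, narrowly so for rods at P7. Bipolars minus cones was 1.15 ± 0.35 at P7, 1.54 ± 0.35 at P13 and 1.57 ± 0.35 at P30 (limma adjusted p = 0.029, 0.00399 and 0.00263). The P7 call was lost without cone replicate 2 or either bipolar library (0.88 to 1.31). Bipolars minus rods was 0.30, 0.91 and 0.84 on the log2 scale (limma adjusted p = 0.561, 0.0418 and 0.0607), under the fold needed for a call.

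Nlgn1 (ENSMUSG00000063887, chromosome 3, 25426215 to 26332460, spanning 906.2 kb) ran from 0.151 to 6.47 CPM in the 6 rod libraries (median 2.96 CPM) and from 0.681 to 8.50 CPM in the 6 cone libraries (median 3.25 CPM). Bipolars held 41.5 and 48.2 CPM at P7, 56.5 and 62.7 CPM at P13, and 57.0 and 81.1 CPM at P30. No photoreceptor library overlapped with a bipolar one. Nlgn1 was higher in bipolars than in rods by 3.74 ± 1.12, 5.88 ± 1.12 and 4.86 ± 1.12 at P7, P13 and P30 (limma adjusted p = 0.0178, 0.000592 and 0.00276). Over cones it was higher at P13 and P30 (3.87 and 6.60, limma adjusted p = 0.0185 and 0.000373), and 3.16 at P7 was not called (adjusted p = 0.0617). The P7 call against rods was lost without rod replicate 2 or either bipolar library (3.32 to 3.85), and the P13 call against cones without any 1 of the 4 libraries compared (3.69 to 4.06).

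Nlgn3 (ENSMUSG00000031302, chromosome X, 101299168 to 101325963, spanning 26.8 kb) was at most 2.68 CPM in rods, where 1 of the P13 libraries had no reads, and ran from 0.603 to 8.53 CPM in cones. Bipolars held 37.2 and 30.2 CPM at P7, 60.2 and 96.3 CPM at P13, and 49.8 and 42.2 CPM at P30. All bipolar libraries were again above all photoreceptor libraries. Bipolars minus rods was 5.74 ± 1.36 at P7 and 5.57 ± 1.36 at P30 (limma adjusted p = 0.00424 and 0.00405), and the P13 difference was called as well (adjusted p = 1.1e-05). Bipolars minus cones was 2.49 at P7, not called (limma adjusted p = 0.237), 5.28 at P13 (adjusted p = 0.00951) and 3.70 at P30 (adjusted p = 0.0449). The P13 call against cones was lost without cone replicate 1 or bipolar replicate 2 (3.61 to 4.95), the P30 call against rods without rod replicate 1 (4.09), and the P30 call against cones in 15 of the 22 fits that left out a library (2.42 to 3.82). Gm21986, annotated on the same strand, shares 41.2% of the Nlgn3 exon bases, so reads there cannot be told apart.

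The makeup of the neuroligin family differed accordingly. Nlgn2 made up 92.3% to 99.8% of the summed neuroligin level per kb of exon in rods, 80.0% to 93.5% in cones and 44.9% to 68.7% in the 10 libraries of bipolar samples. Nlgn1 reached at most 3.87% in rods and 7.36% in cones, against 8.35% to 31.5% in bipolar samples. For Nlgn3 the range was 0 to 5.48% in rods, 1.04% to 19.0% in cones and 14.9% to 34.9% in bipolar samples. Exon length is the union of annotated exons, and how much of a transcript the amplification covered is not known. How reads over shared exon bases were counted is not known either. Gm21986 shares 41.2% of those of Nlgn3, and A830092H15Rik, on the opposite strand, 9.2% of those of Nlgn1.

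**Figure D2:**
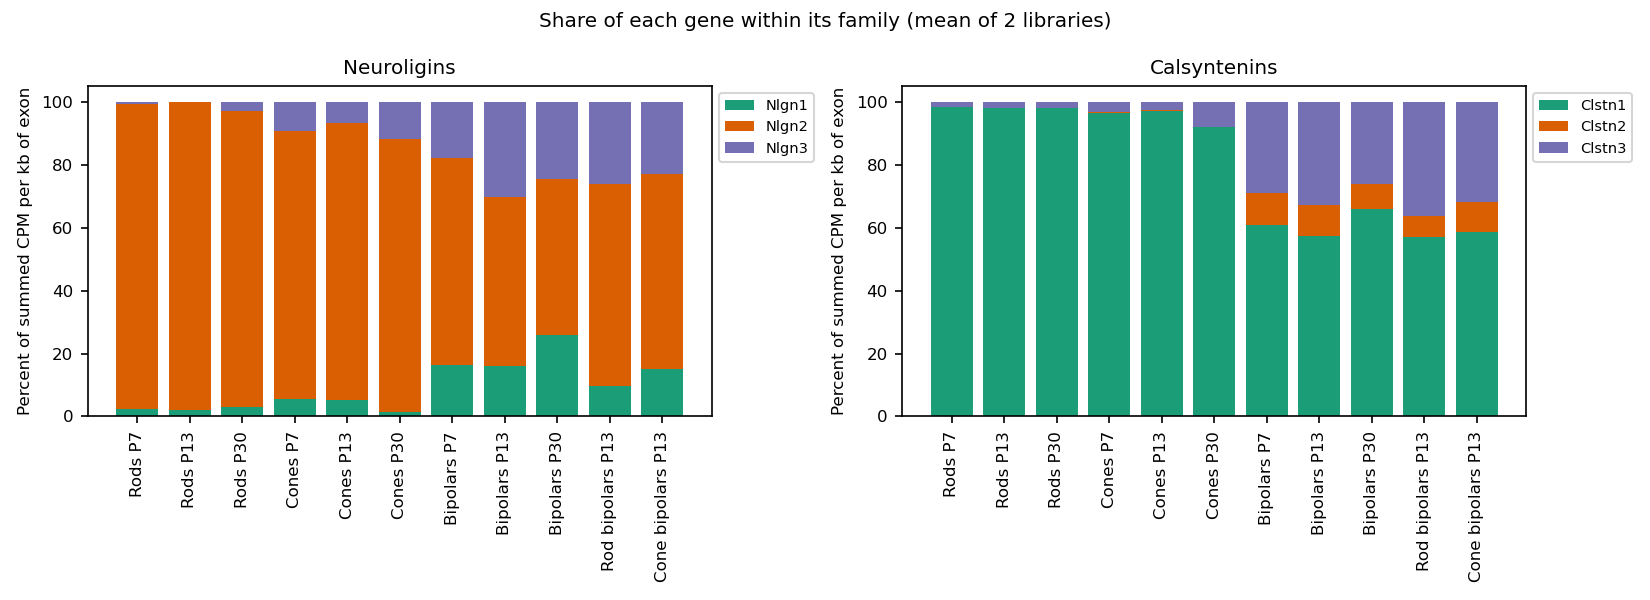
Share of each neuroligin and each calsyntenin in the summed CPM per kb of exon of its family, in percent, for the 11 groups; each bar is the mean of 2 libraries. In single photoreceptor libraries Nlgn2 takes at least 80.0% and Clstn1 at least 91.1%, against 44.9% to 68.7% (Nlgn2) and 56.8% to 68.2% (Clstn1) in bipolar samples.

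Clstn1 (ENSMUSG00000039953, chromosome 4, 149586468 to 149648899, spanning 62.4 kb) had its highest levels in rods at P7 and in cones. It was also the calsyntenin with the largest share in bipolar samples (56.8% to 68.2% per kb of exon). Rods held 772 and 1228 CPM at P7, 463 and 376 CPM at P13, and 282 and 324 CPM at P30. Cones held 937 and 738 CPM at P7, 998 and 947 CPM at P13, and 510 and 544 CPM at P30. Bipolars held 247 and 204 CPM, 253 and 229 CPM, and 260 and 319 CPM at the 3 ages. Every cone library was above every bipolar library, and the rods passed from above the bipolars at P7 and P13 to an overlap with them at P30. Bipolars minus rods was -2.12 ± 0.21 at P7 (limma adjusted p = 1.58e-06), -0.79 ± 0.21 at P13 (adjusted p = 0.00587, under the fold for a call) and -0.07 ± 0.21 at P30 (adjusted p = 0.822). Bipolars minus cones was -1.89 ± 0.21 at P7, -2.01 ± 0.21 at P13 and -0.87 ± 0.21 at P30 (limma adjusted p = 8.18e-06, 3.73e-06 and 0.00454), the last under the fold for a call. Rods minus cones was -1.22 ± 0.21 at P13 (limma adjusted p = 0.000574), against 0.23 and -0.80 at P7 and P30, which were not called.

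Clstn3 (ENSMUSG00000008153, chromosome 6, 124430759 to 124464794, spanning 34.0 kb) formed 3 steps, with rods lowest, cones between and bipolars highest. Rods held 16.2 and 18.5 CPM at P7, 6.57 and 10.3 CPM at P13, and 8.96 and 4.11 CPM at P30. Cones held 36.7 and 26.0 CPM, 28.6 and 30.4 CPM, and 53.0 and 43.1 CPM. Bipolars held 112 and 115 CPM, 151 and 142 CPM, and 129 and 113 CPM. The 3 cell types did not overlap at any age. Bipolars exceeded rods by 2.71, 4.15 and 4.31, each ± 0.32 on the log2 scale, at P7, P13 and P30 (limma adjusted p = 1.05e-05, 7.09e-08 and 5.46e-08). They exceeded cones by 1.88, 2.31 and 1.34 (limma adjusted p = 0.000547, 7.27e-05 and 0.00456). Rods were below cones by -1.84 ± 0.32 at P13 and -2.98 ± 0.32 at P30 (limma adjusted p = 0.000652 and 7.65e-06), while -0.84 at P7 was not called (adjusted p = 0.094).

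Clstn2 (ENSMUSG00000032452, chromosome 9, 97444395 to 98033181, spanning 588.8 kb) had no reads in 5 of the 6 rod libraries and 0.539 CPM in the other one, at P30. Cones held 1.14 and 0.757 CPM at P7, 0 and 0.943 CPM at P13, and 0.440 and 0.824 CPM at P30. Bipolars held 47.1 and 44.1 CPM at P7, 52.1 and 48.9 CPM at P13, and 32.3 and 51.9 CPM at P30. The gap between bipolars and rods was at least 1452-fold at P7 and at least 1148-fold at P13, with 3 reads over the rod group as the limit. This limit covers counting error alone, and the rod libraries at P30 had 0 and 29 reads. All 3 differences from rods were called (limma adjusted p = 0.000115, 7.28e-05 and 0.00115). Against cones, P13 and P30 were called (limma adjusted p = 0.0022 and 0.0222) and P7 was not (5.61 ± 1.92, adjusted p = 0.0521). The P30 call against cones was lost without cone replicate 1 or either bipolar library (5.62 to 6.41). Rods were called below cones at P7 (limma adjusted p = 0.0215), where cones held at least 30.1-fold more. That call was lost without any 1 of the 4 libraries compared (-7.30 to -6.71) and with log2(CPM + 0.5) in place of the deposited scale (-1.52).

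Within the calsyntenins, Clstn1 held 97.1% to 98.7% of the summed level per kb of exon in rods, 91.1% to 97.4% in cones and 56.8% to 68.2% in bipolar samples. Clstn3 took 1.18% to 2.90% in rods, 2.62% to 8.88% in cones and 22.7% to 38.3% in bipolar samples. Clstn2 stayed at or under 0.135% in photoreceptors and took 4.16% to 10.4% in bipolar samples.

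Nxph1 (ENSMUSG00000046178, chromosome 6, 8948431 to 9249032, spanning 300.6 kb) encodes the only secreted ligand of the 9. It had no reads in 4 of 6 rod libraries and 4 of 6 cone libraries, and at most 0.498 CPM in the others. Bipolars held 39.3 and 36.1 CPM at P7, 87.7 and 70.4 CPM at P13, and 47.3 and 103 CPM at P30. No library labelled bipolars came near a photoreceptor one. Bipolars held at least 1199-fold more than rods at P7, at least 2170-fold more than cones at P13 and at least 1482-fold more than cones at P30. All 6 differences from photoreceptors were called (limma adjusted p = 0.000495, 0.000402 and 0.00176 against rods and 0.0357, 0.000348 and 0.000318 against cones at P7, P13 and P30). The P7 call against cones was lost without any 1 of the 4 libraries compared (6.50 to 7.52).

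**Figure D3:**
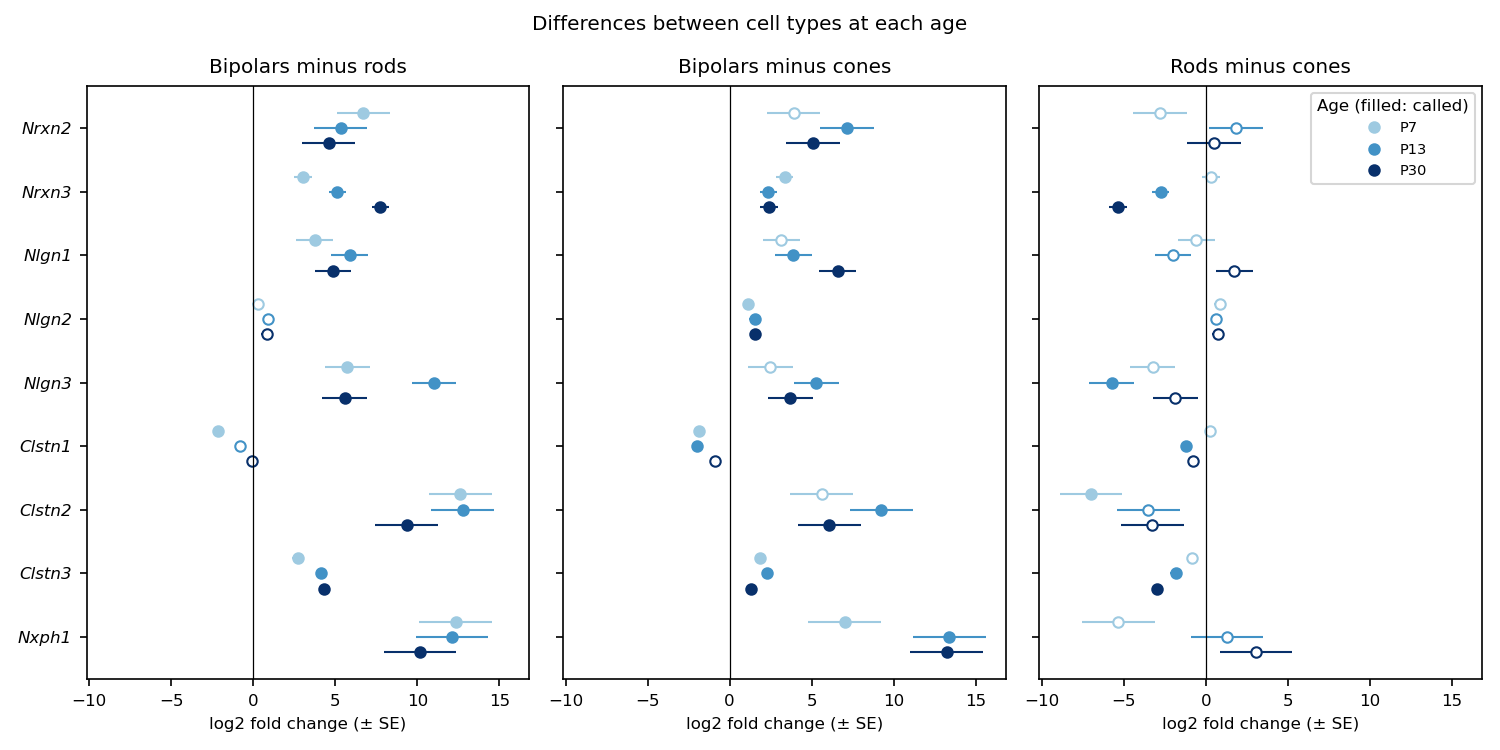
Fitted log2 fold change ± SE (limma) of each gene for bipolars minus rods, bipolars minus cones and rods minus cones at P7, P13 and P30; filled points passed the call and open points did not. Nrxn2, Nrxn3, Nlgn1, Nlgn3, Clstn2, Clstn3 and Nxph1 lie to the right in both bipolar panels and Clstn1 lies to the left or close to 0; the values furthest to the right involve groups with few or no reads and are not bounds.

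Counted over the 9 genes, bipolars minus rods gave 7 called higher and 1 called lower at P7, against 16.5% and 12% of all genes tested. At P13 it gave 7 higher and none lower, against 25.2% and 15%, and at P30 again 7 and none, against 22% and 15.7%. The median log2 fold change of the 9 was 3.74, 5.33 and 4.86 at the 3 ages, also with genes without reads at their bound, against 0.19, 0.27 and 0.08 over all genes tested. Bipolars minus cones gave 4 higher and 1 lower at P7, against 5.4% and 10.2% of all genes. It gave 8 higher and 1 lower at P13 (11.7% and 10.5%) and 8 higher and none lower at P30 (19.3% and 11.1%), with medians of 3.16, 3.87 and 3.70 beside 0.01, 0.08 and 0.14. Both sets of comparisons share the bipolar libraries. At P7 the Müller glia markers summed to 159 to 164 CPM in bipolars, 157 to 184 CPM in cones and 107 to 117 CPM in rods, and the amacrine markers to 155 to 228 CPM, 13.8 to 44.1 CPM and 8.80 to 18.2 CPM. At P30 the glial sum was 3861 to 6001 CPM in bipolars, 596 to 782 CPM in cones and at most 234 CPM in rods. The part of these cell types in the counts was not tested.

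Rods minus cones gave 1 gene called lower at P7 (Clstn2), 4 at P13 (Nrxn3, Nlgn3, Clstn1 and Clstn3) and 2 at P30 (Nrxn3 and Clstn3), and none higher. Of all genes tested, 9.52%, 14.1% and 10% were called lower and 3.3%, 7.1% and 9.98% higher. The median of the 9 was -0.84, -1.84 and -0.80 (-0.84, -1.93 and -0.80 with genes without reads at their bound), beside -0.16, -0.11 and 0.14 over all genes. Nlgn3 at P13 stood at 0.176 and 0 CPM in rods and 0.603 and 6.24 CPM in cones (limma adjusted p = 0.0061). That call was lost without rod replicate 2 or cone replicate 2 (-4.06 to -3.42). With a fit of only the 2 groups compared, which has 2 residual degrees of freedom, 6 of these 7 calls were lost, all but Clstn2 at P7, and Nxph1 at P7 was called lower in rods.

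Calls between ages were made in rods and none in cones or bipolars. From P7 to P30 in rods, Nrxn3 fell by 4.41 ± 0.53, Clstn1 by 1.69 ± 0.21 and Clstn3 by 1.51 ± 0.32 on the log2 scale (limma adjusted p = 2.56e-05, 3.32e-05 and 0.00273), 3 of 9 beside 9.15% of all genes called lower and 10.7% higher. The same 3 were called lower from P7 to P13 (-1.77, -1.22 and -1.07, limma adjusted p = 0.0327, 0.0012 and 0.0325), beside 7.02% of all genes and 5.62% higher. From P13 to P30, Nrxn3 was lower again (-2.64 ± 0.53, limma adjusted p = 0.00368), beside 5.3% of all genes. In each step the later libraries of Nrxn3 lay wholly below the earlier ones, while those of Clstn3 overlapped between P13 and P30. Nlgn3 was called higher in the second step (limma adjusted p = 0.0297, beside 6.74% of all genes), from 0.176 and 0 CPM to 0.340 and 2.68 CPM.

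Some of these calls rested on single libraries. The P7 to P13 calls were lost for Nrxn3 without either P7 library or P13 replicate 2 (-2.09 to -1.32), for Clstn1 without P7 replicate 2 (-0.89) and for Clstn3 without either P7 library or P13 replicate 1 (-1.17 to -0.75). From P7 to P30, Clstn3 was lost without P30 replicate 2 (-0.95), and from P13 to P30, Nlgn3 without P13 replicate 2 or P30 replicate 2 (2.40 to 3.25). With array quality weights 3 of the 8 rod calls were left, and with a fit of only the groups compared none.

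In cones no gene was called between ages, where 0.44%, 3.2% and 10.5% of all genes were called from P7 to P13, P13 to P30 and P7 to P30. Nrxn3 differed by 1.25 ± 0.53 from P7 to P30 (limma adjusted p = 0.129, 95% interval 0.13 to 2.38), and Clstn3 by 0.63 ± 0.32 (adjusted p = 0.208). Clstn1 differed by -0.88 ± 0.21 from P13 to P30 (limma adjusted p = 0.03), under the fold for a call, and by -1.30 with scaling by plain read totals, where it was called. From P7 to P30 Clstn1 differed by -0.658, with a limma adjusted p under 0.05 but under the fold for a call. With plain read totals that change was -1.445 and was called. In bipolars no gene was called either, beside 2.98%, 1.86% and 12.5% of all genes. There Nrxn3 differed by 0.30 ± 0.53 from P7 to P30 (95% interval -0.82 to 1.43), Clstn1 by 0.36 ± 0.21 (-0.08 to 0.81) and Clstn3 by 0.09 ± 0.32 (-0.59 to 0.77).

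The difference between the age courses was tested as an interaction of cell type and age. From P7 to P30, the change of Nrxn3 in rods was lower than that in cones by -5.67 ± 0.75, that of Clstn3 by -2.14 ± 0.45 and that of Clstn1 by -1.03 ± 0.30 (limma adjusted p = 0.000289, 0.00787 and 0.0357), 3 of 9 beside 4.57% of all genes called lower and 6.04% higher. Bipolars minus rods gave 4.72 ± 0.75 for Nrxn3, 2.05 ± 0.30 for Clstn1 and 1.60 ± 0.45 for Clstn3 (limma adjusted p = 0.000629, 0.000279 and 0.0262), again 3 of 9 beside 8.26% higher and 6.17% lower. Bipolars minus cones gave 1.02 ± 0.30 for Clstn1 (limma adjusted p = 0.0432), the 1 call of 9 beside 5.8% higher and 2.51% lower. Both Nrxn3 differences, the Clstn3 difference between rods and cones and the Clstn1 difference between bipolars and rods kept their calls whichever library was left out. Of these, the Clstn3 difference (-2.14) lost its call with a fit of only the groups compared.

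The other interaction calls were lost when some libraries were left out. Clstn1 in rods against cones lost its call without 1 of 5 libraries (rod P7 replicate 2, rod P30 replicate 1, cone P7 replicate 2 or either cone P30 library, -1.08 to -0.70), with plain read totals, where it was -0.36, and with mitochondrial reads left out of the scaling, where it was -0.79. Scaling by plain totals moved the median of all genes in this comparison by 0.65. Reads of the mitochondrial genome made up 4.61% to 6.14% of cone libraries at P7, 17.4% to 17.6% at P13 and 28.6% to 38.7% at P30, against 2.55% to 9.88% in rods and 3.89% to 8.50% in bipolars over all ages. Their part in the age courses beyond these scalings was not tested. For bipolars against cones, Clstn1 lost it in 13 of the 22 fits that left out a library (0.85 to 1.17). Clstn3 in bipolars against rods lost it without rod P7 replicate 2, rod P30 replicate 2 or any P7 or P30 bipolar library (1.04 to 1.69).

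**Figure D4:**
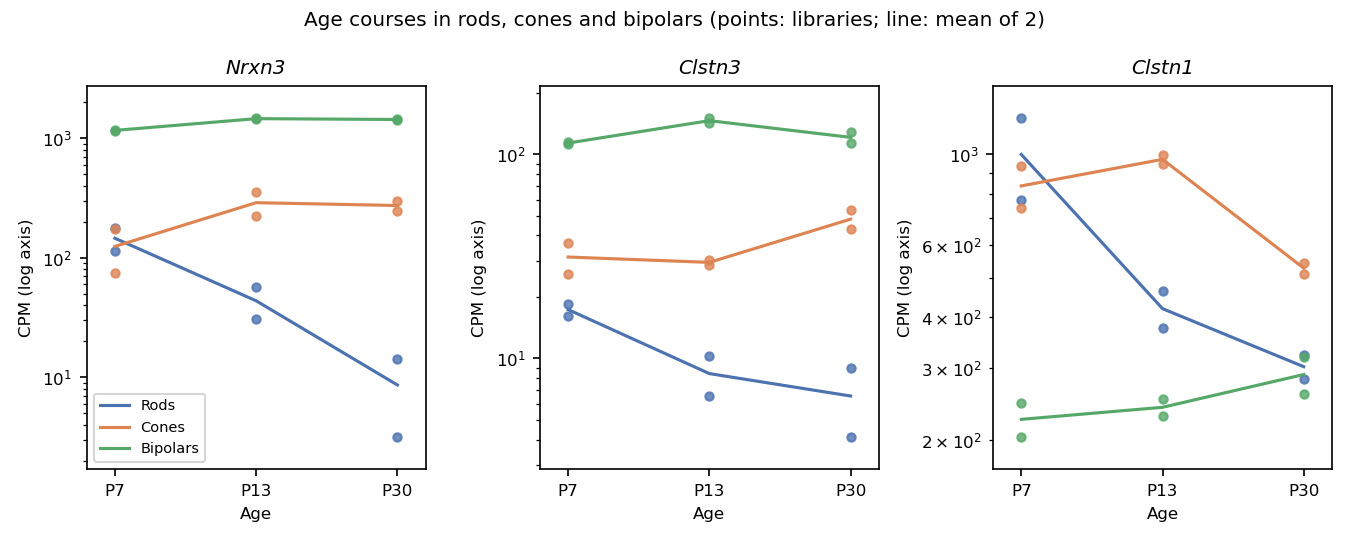
CPM on a log axis of Nrxn3, Clstn3 and Clstn1 at P7, P13 and P30 in rods, cones and bipolars; points are libraries and lines join the means of 2. The rod line falls in each panel, from 177 and 113 CPM to 14.0 and 3.14 CPM for Nrxn3, while the bipolar lines stay level. The cone line of Clstn1 also falls from P13 to P30.

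At P13 the bipolar samples could be compared with each other. Rod bipolars minus cone bipolars gave 1 call of 9, Nlgn2 lower, where 3.17% of all genes were called lower and 1.51% higher. Nlgn2 held 45.4 and 51.2 CPM in rod bipolars and 125 and 103 CPM in cone bipolars, without overlap (-1.24 ± 0.35, limma adjusted p = 0.048). The call was lost in 18 of the 22 fits that left out a library (-1.38 to -1.10). Nlgn1 stood at 13.01 and 21.9 CPM in rod bipolars and 70.3 and 60.4 CPM in cone bipolars, also without overlap, and was not called (-1.95 ± 1.12, limma adjusted p = 0.417, 95% interval -4.34 to 0.45). Nlgn3, at 26.0 and 38.6 against 66.7 and 68.6 CPM, and Clstn2, at 18.2 and 33.4 against 58.0 and 47.9 CPM, had the same order and no call. Clstn3, at 146 and 111 against 166 and 133 CPM, overlapped. The median of the 9 was -1.10, against -0.06 over all genes.

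Rod bipolars and cone bipolars were also each set against bipolars of the same age, a comparison added after the level of Nxph1 had been seen. Nxph1 held 0 and 2.37 CPM in rod bipolars and 2.34 and 3.50 CPM in cone bipolars, against 87.7 and 70.4 CPM in bipolars. Neither sample came near the bipolar libraries. Rod bipolars were called lower (-9.22 ± 2.21 as fitted, limma adjusted p = 0.0136), the 1 call of 9 beside 4.44% of all genes called lower and 3.74% higher. It was lost without either bipolar library or rod bipolar replicate 1 (-9.38 to -5.05). Cone bipolars minus bipolars was -4.78 ± 2.21 and was not called (limma adjusted p = 1), where 0.0597% of all genes were called lower and 0.224% higher, but it was with log2(CPM + 0.5) (-4.55). The amacrine markers summed to 72.4 to 273 CPM in bipolars at P13, 22.7 to 146 CPM in rod bipolars and 33.9 to 95.5 CPM in cone bipolars, and the Müller glia markers to 661 to 824 CPM, 82.0 to 154 CPM and 250 to 260 CPM. The part of these cell types in the Nxph1 difference was not tested.

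**Figure D5:**
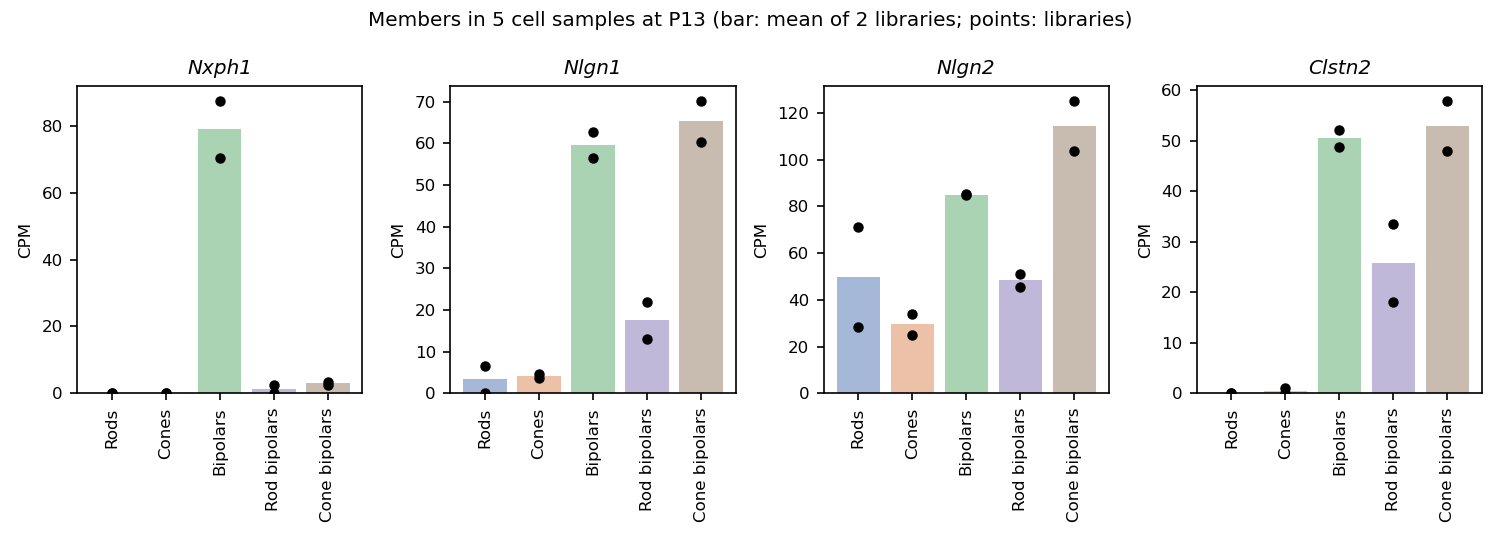
CPM of Nxph1, Nlgn1, Nlgn2 and Clstn2 at P13 in photoreceptors and in bipolars, rod bipolars and cone bipolars; bars are means of 2 libraries and points the libraries. Nxph1 is at 70.4 CPM or more in bipolars alone, whereas the other 3 genes reach their highest values in cone bipolars.

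Rods and rod bipolars, and cones and cone bipolars, are the partners of the outer synapses, and their P13 comparisons were likewise added after the levels had been seen. Rod bipolars exceeded rods in 6 of 9 genes (Nrxn2, Nrxn3, Nlgn1, Nlgn3, Clstn2 and Clstn3) and were lower in Clstn1, beside 22.5% of all genes called higher and 15.6% lower. Nrxn3 differed by 4.98 ± 0.53, Clstn3 by 3.95 ± 0.32 and Clstn1 by -1.15 ± 0.21 (limma adjusted p = 2.33e-06, 1.2e-07 and 0.000393). Clstn1 was -0.999 without rod P13 replicate 1 and -0.84 with mitochondrial reads left out of the scaling, both under the fold for a call, Nlgn1 was lost without rod replicate 2 or rod bipolar replicate 2 (1.38 to 3.69), and Nrxn2 in 14 of the 22 fits that left out a library (3.83 to 4.55). Cone bipolars exceeded cones in 8 of 9 genes and were lower in Clstn1, beside 11.2% and 9.42%. Nlgn2 was among these, by 1.97 ± 0.35, with Nrxn3 at 2.85 ± 0.53 and Clstn1 at -1.92 ± 0.21 (limma adjusted p = 0.000693, 0.00104 and 7.88e-06). Nlgn1 was lost there without any 1 of the 4 libraries (3.82 to 4.19), Nlgn3 without cone replicate 1 or either cone bipolar library (3.44 to 5.13), Nrxn2 without cone replicate 1 (3.81) and Nxph1 without cone bipolar replicate 2 (8.33).

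Ordered by mean, the 11 groups fell into blocks. For Nrxn2, Nrxn3, Nlgn1, Nlgn3, Clstn2 and Clstn3 the lowest bipolar sample stood above the highest photoreceptor group without overlap. Of their 10 neighbouring pairs of groups, 8, 5, 6, 6, 8 and 6 overlapped. The share of all genes with such a gap was not counted. For Nlgn2, 6 of 10 neighbouring pairs overlapped and rods at P7 ranked between bipolars at P7 and at P30. In Clstn1 the order ran from rods at P7 and cones at P13 (means of 999.8 and 972 CPM, overlapping) down to rod bipolars at 189 CPM. Nrxn3 had the fewest overlaps, 5 of 10, and cone bipolars at 2026 CPM and rods at P30 at 8.59 CPM were its ends.

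Across the 11 group means, Nrxn3 and Clstn3 ran closest together of the 36 pairs (Pearson r = 0.968), followed by Nlgn3 and Clstn2 (r = 0.954). Clstn1 was negatively related to each of the other 8, from -0.86 with Nrxn2 to -0.41 with Nrxn3. The groups share cell types and libraries, so these are descriptions. Among 11429 genes, those with the pattern most like Nrxn3 were Aplp2 and Fgf13 (r = 0.982 and 0.981), like Nrxn2 Nyx and Serpini1 (0.981 and 0.978), and like Nlgn1 Lrrn1 and Adgrl3 (0.995 and 0.982). Adgrl3, a latrophilin, is itself a synaptic adhesion receptor, and Nyx encodes nyctalopin of the ON-bipolar dendrite. Nlgn2 was closest to Ube3a and Ephb6 (0.950 and 0.948), Nlgn3 to Klc1 and Cyth3 (both 0.982), and Clstn1 to Zdbf2 and Ost4 (both 0.949). For Clstn2 they were Csdc2 and Ikzf4 (0.993 and 0.987), for Clstn3 Mapt and Gucy1b1 (0.991 and 0.987), and for Nxph1 Srpx2 and Adcy8 (0.973 and 0.968).

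Other ligands and receptors of neurexins and neuroligins were followed as a list, of which 19 of 21 genes were tested. In bipolars minus rods, 9 were called higher and 1 lower at P7, 14 and none at P13, and 16 and 1 at P30, against 16.5%, 25.2% and 22% of all genes called higher and 12%, 15% and 15.7% lower, with medians of 5.70, 7.07 and 8.61 beside the 0.19, 0.27 and 0.08 of all genes (4.73, 5.63 and 8.17 with genes without reads at their bound). Against cones 2, 5 and 12 were higher and 1, 0 and 1 lower, beside 5.4%, 11.7% and 19.3% of all genes higher and 10.2%, 10.5% and 11.1% lower. C1ql3, a secreted C1q-like protein, was the gene called lower in bipolars at P7 and P30. Lrrtm4, a postsynaptic leucine-rich repeat partner of neurexins, ran from 24.1 to 31.3 CPM in bipolars at P13, 216 to 378 CPM in rod bipolars and 4.57 to 6.66 CPM in cone bipolars. The last 2 did not overlap, but the difference was not called (5.69 ± 2.18, limma adjusted p = 0.167). Grid1, a delta glutamate receptor bound to neurexins through cerebellins, was at most 2.78 CPM in photoreceptors and 25.0 to 84.9 CPM in bipolar samples. Sparcl1 (hevin), a protein that glia also secrete, rose in bipolars from 0.791 and 1.07 CPM at P7 to a range of 94.8 to 135 CPM at P30 (6.93 ± 1.58, limma adjusted p = 0.00707). In rods it was called higher too, from 0 to 0.0201 CPM at P7 to 1.17 to 8.22 CPM at P30. Cones went from 0.757 to 1.60 CPM at P7 to 6.95 to 11.8 CPM at P30, without a call. The Müller glia markers summed to 3861 to 6001 CPM in bipolars at P30. At P13, Sparcl1 ran from 7.86 to 18.0 CPM in bipolars, 11.8 to 25.7 CPM in rod bipolars and 4.75 to 9.33 CPM in cone bipolars. The glial sums there were 661 to 824, 82.0 to 154 and 250 to 260 CPM. The part of glial RNA in the Sparcl1 rises was not tested.

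The intracellular partners formed a pair of lists. Of 15 presynaptic scaffold genes tested, 5, 8 and 6 were higher and 1, 1 and 2 lower in bipolars than in rods at P7, P13 and P30 (medians 0.44, 2.08 and 0.83). Of all genes, 16.5%, 25.2% and 22% were higher and 12%, 15% and 15.7% lower. Against cones 2, 3 and 2 were higher and 1, 2 and 2 lower, beside 5.4%, 11.7% and 19.3% of all genes higher and 10.2%, 10.5% and 11.1% lower. At P30 the share of the list called higher was below that of all genes, and the share called lower was near it. Lin7a, a PDZ partner of CASK, ran from 611 to 1079 CPM in bipolars and reached at most 60.9 CPM in photoreceptors. Epb41l1, a protein 4.1 that ties membrane proteins to actin, instead led in cones, at 140 to 272 CPM, against 0.151 to 7.82 CPM in rods and 18.7 to 42.5 CPM in bipolars. Apba2 (Mint2) was at 48.2 to 55.5 CPM in cone bipolars and 0.809 to 3.68 CPM in rod bipolars, without overlap and without a call.

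Of 17 postsynaptic scaffold genes tested, 10, 10 and 11 were higher and 1, 2 and 2 lower in bipolars than in rods (medians 2.33, 2.31 and 3.13, or 1.77, 2.31 and 3.13 with bounds). Beside these stand the same 16.5%, 25.2% and 22% of all genes higher and 12%, 15% and 15.7% lower. Against cones 4, 5 and 7 were higher and 1, 2 and 1 lower, beside 5.4%, 11.7% and 19.3% of all genes higher and 10.2%, 10.5% and 11.1% lower. Shank2, a scaffold of excitatory synapses, ran from 62.1 to 158 CPM in bipolars and from 62.3 to 139 CPM in cones but reached only 3.06 CPM in rods. Shank1 was at most 1.11 CPM in rods, 1.85 to 10.1 CPM in cones and 16.3 to 32.5 CPM in bipolars.

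Regulators of neurexin splicing and of ectodomain shedding made up the last list, with 14 of 14 genes tested. In bipolars minus rods, 5, 6 and 6 were called higher and none lower (medians 1.14, 0.79 and 1.01), beside 16.5%, 25.2% and 22% of all genes higher and 12%, 15% and 15.7% lower. In bipolars minus cones 2, 3 and 7 were higher and none lower, beside 5.4%, 11.7% and 19.3% of all genes higher and 10.2%, 10.5% and 11.1% lower. Those higher were chiefly the neuronal splicing factors. Rbfox1 ran from 19.5 to 71.7 CPM in bipolars and at most 6.93 CPM in photoreceptors, and had no reads in cones at P30. Nova2 ran from 3.09 to 12.7 CPM in bipolars and at most 2.68 CPM in photoreceptors. Rbfox2 was called higher in bipolars than in rods at P13 alone of these comparisons (limma adjusted p = 0.00293), at 4.90 and 18.6 CPM against no reads.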

How the data were processed

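Cells were sorted, and messenger RNA was linearly amplified and made into TruSeq libraries, per the labels' protocols. Per the submitters' processing notes, STAR, edgeR and GRCm38 (mm10) were used. Which read counter, annotation and gene filter they chose is not given in the sources used here. Values as deposited are log2 CPM, per the table's name and its values. A gene without reads has -7.10 in every library, and once that floor was taken off, 100% of low values matched whole reads to within 0.1, which gave 14.4 to 54.4 Mreads per library. Counting error is covered by the 3-read limits, not amplification.

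GENCODE M21 supplied symbols and positions for 13785 of 13812 IDs; the 27 others held 0.109% of reads. The log2 values were tested with limma 3.58.1 in R 4.3.3 in 1 model of 11 groups (11 residual degrees of freedom, intensity trend), checked on simulated data. The simulation gave all genes the same spread and changed only well-covered genes, so recovery was not checked for genes with few or no reads. Genes with log2 CPM of at least 0 in both libraries of a group were tested, 13405 in all, in 22 comparisons and 4 added ones, with adjustment within each comparison over all genes. The genes, lists and rules were chosen with earlier results of these data known. Named genes were the 9, for each the 2 genes with the highest correlation over group means (highest mean log2 CPM at least 3), and up to 3 called genes per partner list with the widest range.

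Alternatives were other scalings, log2(CPM + 0.5), other filters, limma voom on the recovered reads, no trend, array weights, the adjusted p alone, a replicate block, only the groups compared, and each library left out.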

Additional observations from a re-analysis of the deposited data

Results flagged for a closer look

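For 3 genes the change from P7 to P30 differed between cell types by a test of the difference itself (limma). Nrxn3 differed by -5.67 on the log2 scale for rods minus cones and by 4.72 for bipolars minus rods. Clstn3 differed by -2.14 for rods minus cones and by 1.60 for bipolars minus rods. Clstn1 differed by -1.03 for rods minus cones, by 2.05 for bipolars minus rods and by 1.02 for bipolars minus cones. Only groups of 2 libraries were available, so no single library was tested for standing apart.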

How the results depend on the processing

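Of the 67 planned calls of a gene in a comparison, 38 kept their call under all 11 alternatives other than leaving out a library, 43 kept it whichever of the 22 libraries was left out, and 0 changed direction. Fitting only the groups compared moved the number of calls from 7 to 2 for rods against cones (6 lost, 1 gained), from 8 to 0 between ages within rods, from 0 to 1 within cones, from 0 to 2 within bipolars and from 1 to 3 for rod bipolars against cone bipolars. Array quality weights left 3 of the 8 within rods. Within cones, 0 calls became 4 with plain read totals, 1 with limma voom and 2 with the adjusted p alone. Rod bipolars against cone bipolars had 2 calls with limma voom and 0 without the trend. Rod bipolars and cone bipolars against bipolars, chosen after seeing the data, had 2 calls with log2(CPM + 0.5) and 3 with limma voom in place of 1. Leaving out a library gave 6 to 10 calls for rods against cones (7 with all), 20 to 22 for bipolars against rods (22), 19 to 24 for bipolars against cones (22), 5 to 11 within rods (8), 0 to 2 within cones, 0 within bipolars, 0 to 2 for rod bipolars against cone bipolars, 5 to 8 for the interactions (7), 0 to 2 for the bipolar samples (1) and 12 to 16 for the synaptic partners (16). The cause of these shifts was not tested. Scaling by plain totals moved the median of all genes by up to 0.73 for bipolars minus cones at P30 and -0.78 for cones from P7 to P30. Replicate numbers did not pair the libraries: same-numbered libraries of 2 groups had correlated deviations over 0.1 in 5 of 55 pairs of groups. With a replicate block the numbers of calls were 7, 22, 22, 8, 0, 0 and 1 for these comparisons in turn, 6 for the interactions, 1 for the bipolar samples and 16 for the synaptic partners.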
